A study of Mus musculus with 9 samples.

Results

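Acod1 and enzymes of the first steps of the tricarboxylic acid (TCA) cycle were followed across 9 Illumina bead arrays of primary mouse microglia. With them were the cytosolic aconitase Aco1 and the cytosolic isocitrate dehydrogenase Idh1, which lie outside the mitochondrial cycle. Also included were Slc25a1, which carries citrate out of mitochondria, and Acly, which makes cytosolic acetyl-CoA from it. The set holds 9 genes chosen by name, Acod1, Aco1, Cs, Idh1, Idh2, Idh3a, Ogdh, Acly and Slc25a1, found through the probe annotation (Acod1 also under its older name Irg1). They have 13 of the 45281 probes, and all 9 genes were among the 9391 genes measured, meaning that at least 1 of their probes was detected (detection p-value under 0.05) on at least 3 arrays. 11 of the 13 probes met this filter. Where several probes of a gene were kept, the one with the highest mean over the arrays stands for the gene.

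The microglia, the resident macrophages of the brain, were grown from cortical tissue of C57BL/6J mouse pups 1 to 5 days old. All groups carry the intact cannabinoid receptor 2 gene (CB2+/+), and no receptor-deficient cells are analysed here. One group received lipopolysaccharide (LPS, a bacterial cell wall component) together with interferon-gamma (IFNγ, 20 ng/ml) and was harvested at 16 h. Another received 100 U/ml of the cytokine interleukin-4 (IL-4) and was harvested at 48 h, and a control group stayed unstimulated. Each group has 3 arrays. The treated groups thus differ in time as well as in agent. The unit of the LPS dose is incomplete in the labels, so the dose is not given here, and the labels state no culture time for unstimulated cells. The labels do not say whether replicates were separate cultures or whether pups were pooled, so p-values measure only the spread between these arrays.

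LPS + IFNγ replicate 2 stood apart: its probes averaged an intensity of 111.9, against 310.9 to 378.5 on the other 8 arrays, and 6208 probes were detected on it, against 14475 to 16435. Its lowest detected normalized value was 7.34 on the log2 scale, against 4.74 to 4.92 on the other arrays, so a gene not detected there may still be expressed well above the floor of the other arrays. Where a result named below turned on that array, it is given with and without it. The arrays sat on 2 slides, read from the array identifiers: replicates 1 and 2 of both treated groups shared slide 1, and replicate 3 of both shared slide 2 with every unstimulated array. The microglia label was checked against 8 markers on the array: 5 to 7 were detected on LPS + IFNγ arrays and all 8 on IL-4 and unstimulated arrays, with a summed signal (linear scale) of 7735 to 8975, 17612 to 23915 and 27019 to 30864. Of the markers listed for other cells, Aqp4 (astrocytes), Mog and Olig2 (oligodendrocyte lineage), Syt1, Snap25 and Tubb3 (neurons), and Cldn5 and Pdgfrb (endothelial and mural cells) were not detected on any array. Every other gene of these lists with a probe was detected on at least 1 array. Of 6 astrocyte markers, 0 to 2 were detected per array after LPS + IFNγ, 1 to 5 after IL-4 and 0 to 3 in unstimulated cells. Of 6 endothelial, mural and fibroblast markers, 1 to 3, 2 to 4 and 2 to 3 were detected in the same order of groups, and no array had more than 2 of the 5 oligodendrocyte lineage or of the 6 neuron markers.

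The TCA cycle joins acetyl-CoA to oxaloacetate to form citrate, turns citrate into isocitrate through cis-aconitate, and oxidises isocitrate to 2-oxoglutarate and then succinyl-CoA. Acod1 (aconitate decarboxylase 1) takes cis-aconitate out of this sequence and makes itaconate, a metabolite that activated macrophages produce in large amounts and that inhibits succinate dehydrogenase. Citrate can also leave the mitochondrion through the carrier encoded by Slc25a1 and be split by ATP citrate lyase (Acly) into acetyl-CoA and oxaloacetate, which feeds lipid synthesis and protein acetylation in the cytosol. Isocitrate dehydrogenation is shared by an NAD-dependent mitochondrial complex (Idh3a, Idh3b and Idh3g) and by 2 NADP-dependent enzymes, cytosolic Idh1 and mitochondrial Idh2, which give NADPH.

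The 3 genes of the set that passed the test given below for LPS + IFNγ against unstimulated cells were Acod1, Idh1 and Idh2. The bases just upstream of their start sites are shown for that reason. The windows run over the 250 bases before the RefSeq start site in GRCm38.p6, 5′ to 3′ on the strand of the gene, with capitals marking a TATAAA match. They were chr14:103046762-103047011 on the plus strand for Acod1, chr1:65186480-65186729 on the minus strand for Idh1 and chr7:80115351-80115600 on the minus strand for Idh2.
Acod1: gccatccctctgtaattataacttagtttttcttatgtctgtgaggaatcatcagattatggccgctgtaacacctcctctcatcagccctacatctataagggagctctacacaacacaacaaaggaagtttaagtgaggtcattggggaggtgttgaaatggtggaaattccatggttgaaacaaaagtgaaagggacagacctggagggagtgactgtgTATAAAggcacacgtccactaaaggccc
Idh1: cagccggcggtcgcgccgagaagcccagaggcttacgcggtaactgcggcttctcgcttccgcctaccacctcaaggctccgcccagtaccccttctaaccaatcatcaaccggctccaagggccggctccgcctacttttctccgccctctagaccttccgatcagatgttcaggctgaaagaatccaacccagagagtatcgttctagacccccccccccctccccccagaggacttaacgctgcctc
Idh2: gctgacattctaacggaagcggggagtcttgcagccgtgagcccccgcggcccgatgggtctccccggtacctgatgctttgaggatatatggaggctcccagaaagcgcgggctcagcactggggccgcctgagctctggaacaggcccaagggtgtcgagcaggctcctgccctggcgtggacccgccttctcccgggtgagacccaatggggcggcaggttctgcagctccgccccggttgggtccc

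The Acod1 window holds TATAAA 28 bases before the start site, and it was the only one of the 8 members with a promoter entry that did. This motif is in 12.4% of 32851 mouse promoter windows of the same length (both strands). Neither the interferon-gamma activated motif TTCNNNGAA (7.02% of windows), nor the interferon-stimulated response element, taken as 2 GAAA half-sites with 2 bases between them (2.98%), nor the NF-kappaB consensus (3.9%) was found in the windows of Acod1, Idh1 or Idh2. The NF-kappaB consensus was found in the window of Slc25a1 and in 1 of the 6 windows of Ogdh. Idh1 has 2 windows in the table, of which the first is printed, and neither holds any of these motifs. The G and C content was 44.4% in the Acod1 window, 61.6% and 63.6% in those of Idh1 and 67.2% in that of Idh2. A match is a description of the letters, and no match says only that they are not in these windows.

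After LPS + IFNγ, Acod1 RNA was about 70 times the unstimulated signal on the background-corrected scale. The signal of the NADP-dependent isocitrate dehydrogenases Idh1 and Idh2 fell, and none of the other 6 genes passed the test. Against unstimulated cells 1 of the 9 genes was higher and 2 were lower at an adjusted p under 0.05 (limma, Benjamini-Hochberg adjustment over all kept probes). Among all 9391 genes measured, 18.3% passed in this comparison, 6.12% higher and 12.2% lower. Against IL-4 the same 3 genes passed in the same directions, beside a background of 17.3% (5.69% higher and 11.6% lower); these comparisons share the LPS + IFNγ arrays. In 4 of the 9 genes (Acod1, Aco1, Idh1 and Idh2) the LPS + IFNγ arrays did not overlap the unstimulated or the IL-4 arrays, beside 41% and 39.4% of all genes. After IL-4, none of the 9 genes passed against unstimulated cells, where only 0.0639% of all genes did, or 0.383% without LPS + IFNγ replicate 2. The median difference of the 9 genes was -0.55 after LPS + IFNγ and 0.06 after IL-4, each against unstimulated cells, on the log2 scale, and that of all genes was -0.22 and 0.01.

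**Figure D1:**
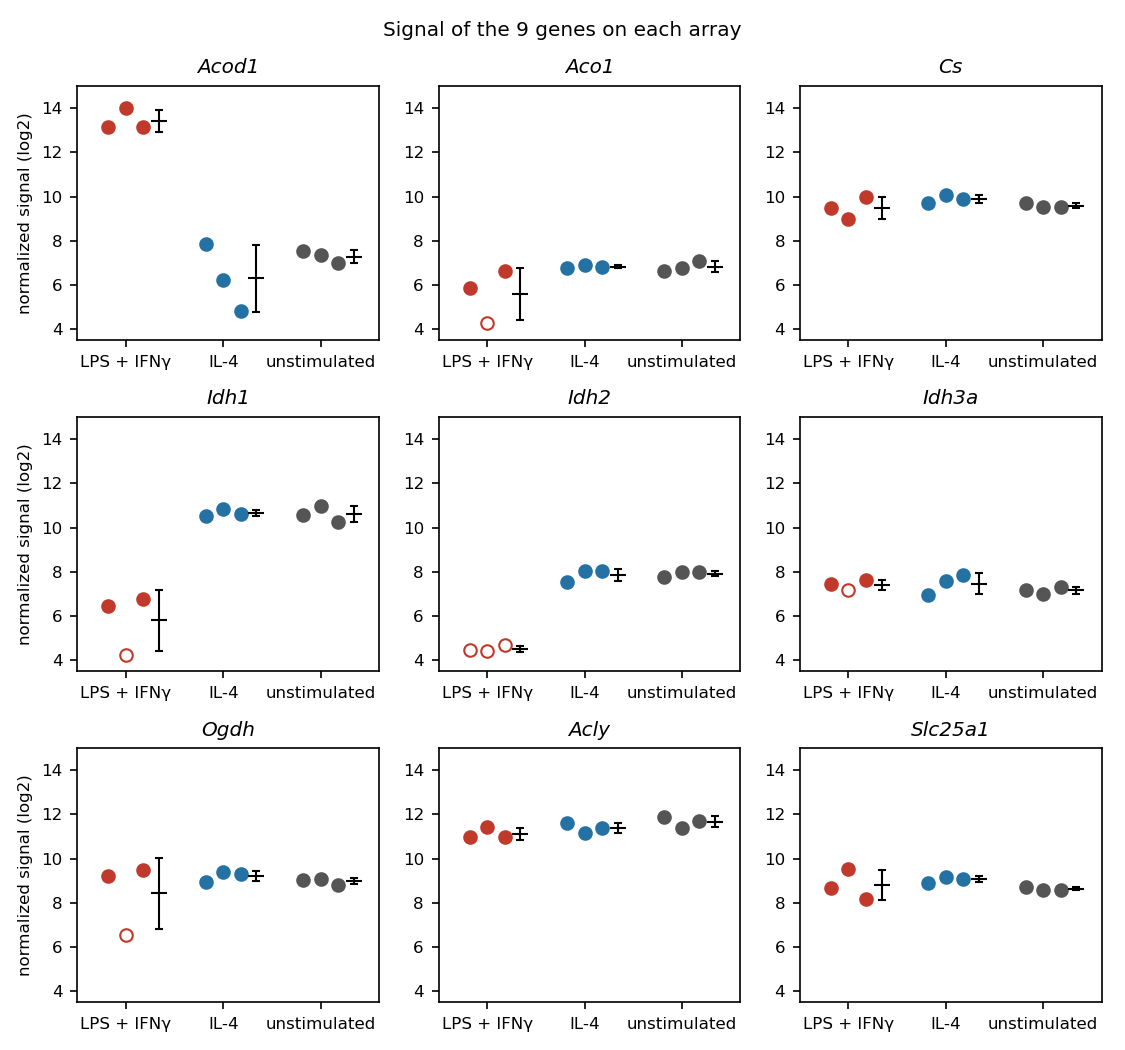
Normalized log2 signal (vertical axis) of each of the 9 genes on the 3 arrays of each group. Filled points are detected and open points are not, and the bar beside each group is its mean with 1 SD. Acod1 lies above 13 on all LPS + IFNγ arrays, Idh1 and Idh2 lie below 7 there, and the other 6 genes lie at like heights in the 3 groups apart from LPS + IFNγ replicate 2 in Aco1 and Ogdh.

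Acod1 (gene 16365, GRCm38.p6 chr14:103047012-103056573) had a normalized log2 signal of 13.15, 14.01 and 13.13 on the LPS + IFNγ arrays, 7.85, 6.24 and 4.82 on the IL-4 arrays, and 7.54, 7.34 and 6.99 on the unstimulated arrays. Every LPS + IFNγ array lay far above every other array, and the probe was detected on all 9. The scanner intensities behind these values were 13399, 1933 and 13199 after LPS + IFNγ, 408, 197 and 137 after IL-4, and 317, 338 and 289 in unstimulated cells. The weak array thus had the lowest intensity of its group and, after normalization, the highest value.

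The group mean was 13.43 ± 0.50 after LPS + IFNγ and 7.29 ± 0.28 in unstimulated cells (SD, n = 3 each), a log2 difference of 6.14 ± 0.66 (SE), or 70.4-fold (adjusted p = 0.000714, limma). This was the 16th-largest rise among the 9391 genes. Without LPS + IFNγ replicate 2 the difference was 5.85 (adjusted p = 0.000298), and within slide 2, with 1 LPS + IFNγ array against 3 unstimulated ones, it was 5.84. Against IL-4 the log2 difference was 7.13 ± 0.66, or 139.6-fold (adjusted p = 0.000386), the 5th-largest of all genes, and it was 6.53 within slide 1 and 8.31 within slide 2. Over 24 alternative settings the difference from unstimulated cells ranged from 4.90 to 6.47 and that from IL-4 from 5.79 to 8.31. The folds thus depend on the processing.

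IL-4 did not give a change in Acod1 that passed the test. The IL-4 mean was 6.30 ± 1.52, against 7.29 ± 0.28 in unstimulated cells (SD, n = 3 each), a difference of -0.99 with a 95% interval of -2.50 to 0.52 (adjusted p = 1, limma). The IL-4 arrays were spread over 3 log2 units, with replicate 1 above every unstimulated array and replicates 2 and 3 below all of them. On slide 2 the difference of the single IL-4 array from the mean of the 3 unstimulated arrays was -2.47. Without IL-4 replicate 1 the difference was -1.76 and without replicate 3 it was -0.25, and neither passed. IL-4 replicate 1 was also the array with the highest summed signal of astrocyte markers, 1724 with 5 of 6 genes detected, and of endothelial, mural and fibroblast markers, 2863. The astrocyte sum otherwise lay no higher than 207 on any array, and the endothelial, mural and fibroblast sum no higher than 888. The part of these cells in the Acod1 signal of that array was not tested. In such bulk samples fewer cells of a type and less RNA per cell cannot be told apart. The order of the Acod1 levels was therefore LPS + IFNγ above the other groups, with IL-4 and unstimulated cells not apart beyond their spread.

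The other Acod1 probe gave the same order of groups. It read 13.01, 11.05 and 13.61 after LPS + IFNγ, 6.52, 5.20 and 4.51 after IL-4, with IL-4 replicate 3 not detected, and 6.90, 6.60 and 6.46 in unstimulated cells. LPS + IFNγ was 5.90 above unstimulated cells (adjusted p = 0.00106) and 7.15 above IL-4 (adjusted p = 0.000468) on the log2 scale. On the weak array, however, this probe was the lowest of its group while the probe used was the highest of its group, so the spread of Acod1 among LPS + IFNγ arrays depends on the probe.

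By the root mean square difference over the 9 arrays, after each gene's unstimulated mean was subtracted, the genes with a pattern nearest to that of Acod1 were Cd69 (0.376), Gbp2 (0.884), Gbp5 (0.957), Gpr18 (0.960) and H2-Ab1 (0.965). Likeness was measured to the Acod1 probe used and not to the other Acod1 probe, so this order holds for that probe only. Cd69 encodes an early activation receptor of leukocytes, Gbp2 and Gbp5 encode interferon-inducible guanylate-binding proteins, Gpr18 a G protein-coupled receptor, and H2-Ab1 a chain of MHC class II. Cd69, the nearest, read 12.70, 13.45 and 12.72 after LPS + IFNγ, 6.76, 5.71 and 4.46 after IL-4, and 7.45, 6.71 and 7.02 in unstimulated cells. Like the Acod1 probe used, Cd69 was highest on LPS + IFNγ replicate 2 within its group and spread widely over the IL-4 arrays. Cd69 was picked for its likeness over these same arrays, so this match follows from the choice. IL-4 replicate 1 was the highest IL-4 array in Cd69, Gbp2, Gbp5 and Gpr18 as well, but not in H2-Ab1, which read 5.58, 6.84 and 5.20 after IL-4.

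**Figure D2:**
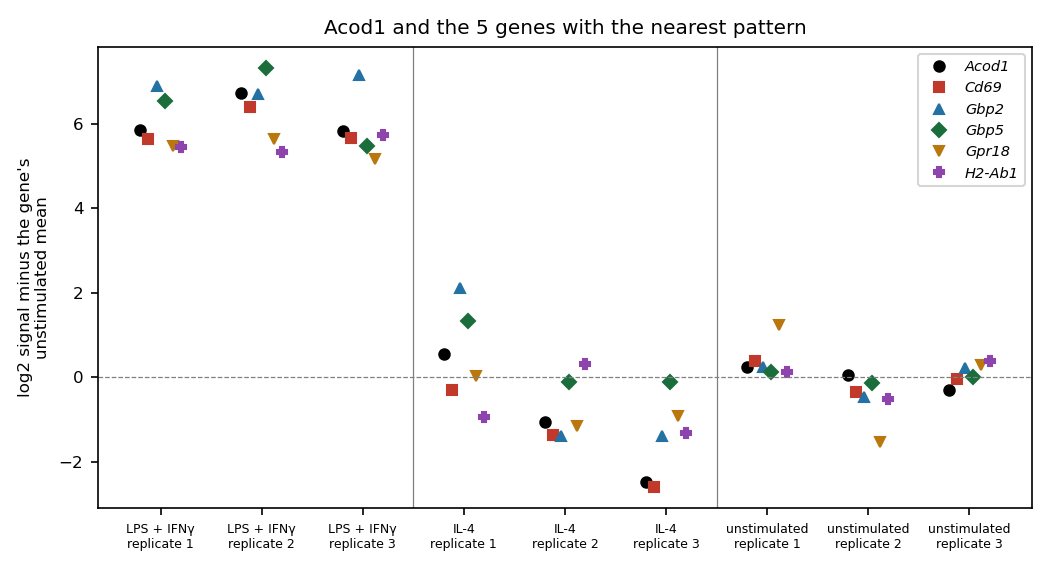
Normalized log2 signal minus the gene's own unstimulated mean (vertical axis) on each array for Acod1 and the 5 genes with the smallest root mean square difference from it. All 6 genes lie above 5 on the LPS + IFNγ arrays, and Acod1 and Cd69 lie close together on the IL-4 arrays, lowest on replicate 3.

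Citrate synthase (Cs) condenses oxaloacetate and acetyl-CoA, the entry to the cycle. Its signal was 9.51, 9.0 and 9.97 after LPS + IFNγ, 9.70, 10.07 and 9.91 after IL-4, and 9.72, 9.52 and 9.53 in unstimulated cells. The 3 groups overlapped. The difference from unstimulated cells was -0.10 after LPS + IFNγ (95% interval -0.72 to 0.53, adjusted p = 0.835) and 0.30 after IL-4 (-0.32 to 0.92, adjusted p = 1). Without the weak array the first of these was 0.15, and with median centring of the arrays it was -1.50 ± 1.17 (SE, adjusted p = 0.415), so how tightly a change in Cs is bounded depends on the scaling.

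Aco1 encodes the cytosolic aconitase, which without its iron-sulphur cluster binds iron-responsive elements in RNA. Its probe read 5.86, 4.30 and 6.62 after LPS + IFNγ, with the second array not detected, 6.78, 6.91 and 6.82 after IL-4, and 6.64, 6.76 and 7.10 in unstimulated cells. All LPS + IFNγ values lay below all the others, but replicate 3 only narrowly. The difference from unstimulated cells was -1.24 ± 0.51 (SE, adjusted p = 0.144). It was -0.59 without the weak array (adjusted p = 0.0979) and -0.23 when that value was set to the lowest detected one on its array. Without LPS + IFNγ replicate 3 it was -1.75 and passed (limma adjusted p = 0.0361), in a fit that keeps the undetected value of the weak array. The share of all genes passing in that fit was not counted. Within slide 2 the difference was -0.21, and with the slide as a block it was -0.74 (adjusted p = 0.603). Aco1 passed against unstimulated cells in 2 of 24 alternative settings. After IL-4 the difference was 0.00, with an interval of -1.16 to 1.16. The SE of this difference was 0.51, and 0.22 without the weak array, which enters it through the spread shared by the 3 groups.

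Idh1 (gene 15926, GRCm38.p6 chr1:65158616-65186479), the cytosolic NADP-dependent isocitrate dehydrogenase, read 6.45, 4.24 and 6.78 after LPS + IFNγ, 10.54, 10.84 and 10.61 after IL-4, and 10.59, 10.99 and 10.24 in unstimulated cells. The LPS + IFNγ arrays lay clearly below all others, and IL-4 and unstimulated arrays overlapped. The intensities were 188, 91.3 and 214 after LPS + IFNγ, 2185, 2576 and 2597 after IL-4, and 1946, 2860 and 2054 in unstimulated cells. The probe was detected on 2 of the 3 LPS + IFNγ arrays, the weak array being the exception, and on all 6 others.

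Idh1 fell to a mean of 5.82 ± 1.38 after LPS + IFNγ, against 10.61 ± 0.37 in unstimulated cells (SD, n = 3 each), a log2 difference of -4.78 ± 0.59 (SE, adjusted p = 0.00134, limma) and the 17th-largest fall of all genes. The weak array enlarged this value: the difference was -3.99 without it (adjusted p = 1.19e-05), -3.75 when its undetected value was set to the lowest detected one, and -3.83 within slide 2. Against IL-4 the difference was -4.84 ± 0.59 (adjusted p = 0.00136), or -4.05 without the weak array. IL-4 gave a difference of 0.06 from unstimulated cells with an interval of -1.29 to 1.40. This interval rests on a spread shared by the 3 groups, the weak array included. Its SE was 0.59, and 0.21 when the weak array was left out. The order was therefore LPS + IFNγ below IL-4 and unstimulated cells, which did not differ beyond their spread.

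Idh2 (gene 269951, GRCm38.p6 chr7:80094845-80118608), the mitochondrial NADP-dependent enzyme, was not detected on any LPS + IFNγ array and was detected on all 6 others. It read 4.46, 4.41 and 4.68 after LPS + IFNγ, 7.55, 8.03 and 8.03 after IL-4, and 7.78, 7.99 and 8.0 in unstimulated cells. The LPS + IFNγ arrays lay together near the background, and the other groups overlapped. With undetected values set to the lowest detected one on the same array, Idh2 on the background-corrected scale was at least 4.66-fold lower after LPS + IFNγ than in unstimulated cells and at least 4.48-fold lower than after IL-4. The fitted differences were -3.41 ± 0.22 (adjusted p = 9.07e-05) and -3.35 ± 0.22 (adjusted p = 7.86e-05), but sizes depend on how the background is treated. Without background correction the fitted differences were -1.61 and -1.57, and in the authors' deposited table -1.52 and -1.57, all smaller than the bounds above, so the bounds hold for the background-corrected values and not for these. The bound rests in part on the weak array with its high floor, and the fitted difference from unstimulated cells without that array was -3.35. IL-4 gave a difference of -0.05 from unstimulated cells, with an interval of -0.55 to 0.44.

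The NAD-dependent isocitrate dehydrogenase gene Idh3a, the catalytic subunit of the complex, showed no such pattern. Its detected probe read 7.44, 7.19 and 7.64 after LPS + IFNγ, the second array not detected, 6.94, 7.61 and 7.87 after IL-4, and 7.16, 7.01 and 7.33 in unstimulated cells. All groups overlapped. The difference from unstimulated cells was 0.25 after LPS + IFNγ (interval -0.38 to 0.89, adjusted p = 0.574; 0.37 without the weak array) and 0.31 after IL-4 (interval -0.33 to 0.94). Its other probe stayed under the detection threshold throughout. Of the complex's other subunits, Idh3b differed by -0.04 after LPS + IFNγ (adjusted p = 0.899) and by 0.01 without the weak array. Idh3g fell by 0.87 on the probe used (limma adjusted p = 0.0182).

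**Figure D3:**
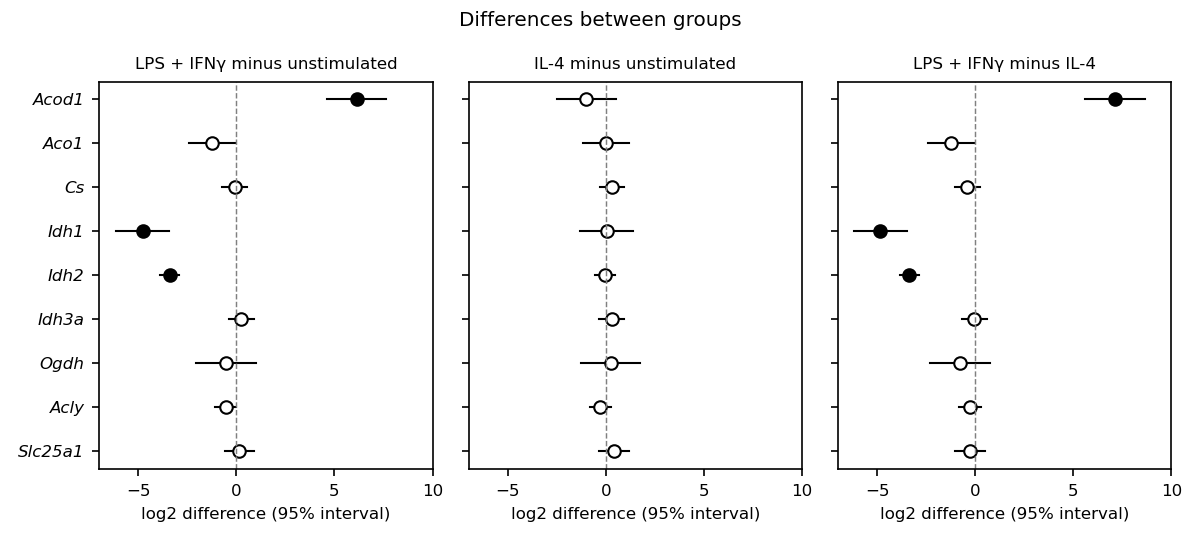
Log2 differences with 95% intervals (horizontal axis) for each of the 9 genes in the 3 comparisons, filled where the adjusted p is under 0.05. Acod1 is filled to the right of 0, and Idh1 and Idh2 to the left, in both comparisons of LPS + IFNγ, and no gene is filled for IL-4 against unstimulated cells.

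Ogdh encodes the 2-oxoglutarate-oxidising subunit of the 2-oxoglutarate dehydrogenase complex, the step after isocitrate oxidation. It read 9.22, 6.56 and 9.50 after LPS + IFNγ, 8.96, 9.37 and 9.32 after IL-4, and 9.03, 9.08 and 8.82 in unstimulated cells. The weak array, on which the probe was not detected, was the only low one. The difference from unstimulated cells was -0.55 after LPS + IFNγ (interval -2.07 to 0.98) and turned to 0.38 without that array; neither passed (adjusted p = 0.612 with it). After IL-4 it was 0.24, with an interval of -1.29 to 1.77. The weak array, in neither of these groups, enters this interval through the spread shared by the 3 groups. The SD was 0.23 after IL-4, 0.13 in unstimulated cells and 1.62 after LPS + IFNγ. The other Ogdh probe was not detected on any array.

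The citrate carrier Slc25a1 read 8.67, 9.54 and 8.18 after LPS + IFNγ, 8.92, 9.19 and 9.09 after IL-4, and 8.73, 8.59 and 8.60 in unstimulated cells. The IL-4 arrays all lay above the unstimulated ones, by 0.42 on average (interval -0.33 to 1.17, adjusted p = 1), and 18.3% of all genes likewise had groups that did not overlap in this comparison. The LPS + IFNγ difference of 0.15 (adjusted p = 0.78) depended on the weak array and was -0.22 without it. Against IL-4 it was -0.27 with that array and -0.64 without it, where it passed (adjusted p = 0.0342) beside 32.7% of all genes. The other Slc25a1 probe gave -0.68 for LPS + IFNγ against unstimulated cells (limma adjusted p = 0.409), the opposite sign of the probe used. It read 6.58, 4.33 and 6.17 after LPS + IFNγ, with the weak array not detected. With that value set to the lowest detected one on its array the difference was 0.33, the same sign as the probe used. The direction of Slc25a1 after LPS + IFNγ thus cannot be given.

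Acly, which splits exported citrate, read 10.98, 11.43 and 10.96 after LPS + IFNγ, 11.62, 11.18 and 11.40 after IL-4, and 11.89, 11.40 and 11.72 in unstimulated cells. LPS + IFNγ replicates 1 and 3 lay below all unstimulated arrays, and replicate 2 just above the lowest of them. The difference was -0.55 ± 0.24 (SE, adjusted p = 0.173), and -0.70 without replicate 2, where it passed (adjusted p = 0.0294) beside 34.3% of all genes. Within slide 2 it was -0.71. IL-4 gave -0.27 (interval -0.83 to 0.28).

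**Figure D4:**
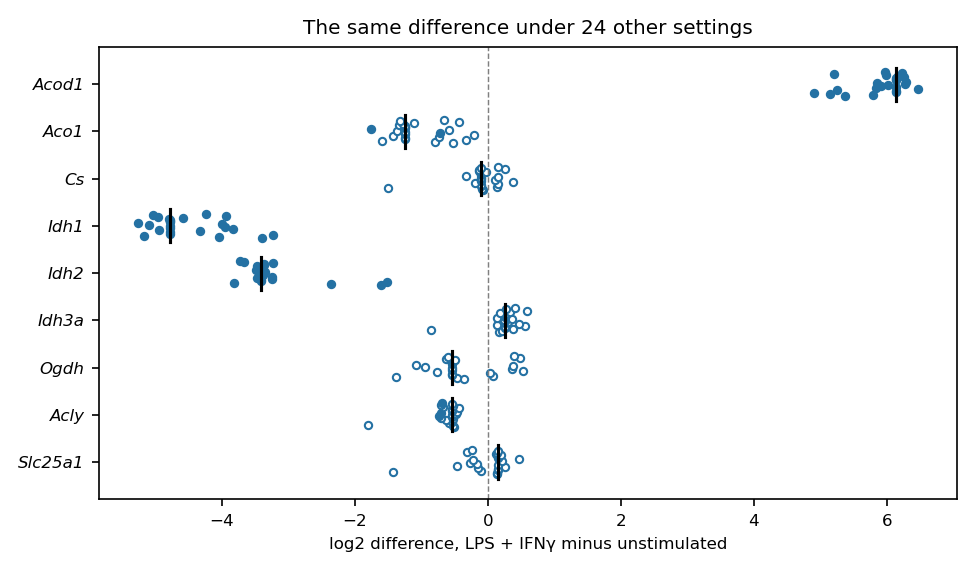
Log2 difference of LPS + IFNγ minus unstimulated cells (horizontal axis) for each gene under 24 other settings, filled where the adjusted p is under 0.05, with a black bar at the reported value. Acod1, Idh1 and Idh2 keep their side of 0 and are filled in every setting, and Cs, Idh3a, Ogdh and Slc25a1 lie on both sides of 0.

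The genes around the 9 were read from a list of 51 enzymes, carriers and regulators, of which 46 have a probe and 32 were measured. After LPS + IFNγ, 2 of the 32 were higher and 5 lower than in unstimulated cells, close to the 18.3% of all genes, with a median of -0.32. After IL-4 none of the 32 passed, beside 0.0639% of all genes, and their median was 0.17. Against IL-4, 2 were higher and 5 lower in LPS + IFNγ cells, beside 5.69% higher and 11.6% lower among all genes. Their median was -0.49 beside -0.24 for all genes.

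Of the 12 other enzymes listed for the TCA cycle and measured, the cytosolic Mdh1 among them, 2 were lower after LPS + IFNγ. None was higher, beside 12.2% lower among all genes. This count turned on the weak array. Without it Suclg2 was also lower, by 1.41 (limma adjusted p = 0.00274), against -0.99 with it (adjusted p = 0.126). Sdhb then passed as higher, beside 34.3% of all genes passing in either direction. Idh3g, the regulatory gamma subunit of the NAD-dependent complex, read 10.24, 10.20 and 10.19 after LPS + IFNγ, against 11.11, 11.00 and 11.12 in unstimulated cells. Its groups were tight and well apart on the probe used. With the kept probes of each gene averaged, however, Idh3g did not pass. Mdh1, the cytosolic malate dehydrogenase, read 5.59, 4.55 and 6.28 after LPS + IFNγ, against 6.61, 7.34 and 7.27 in unstimulated cells, a difference of -1.60 (adjusted p = 0.0406) that was -1.14 without the weak array, where the probe was not detected (adjusted p = 0.0223). The mitochondrial enzyme Mdh2 differed by 0.56 (adjusted p = 0.266), and by 0.23 without the weak array. Fumarase (Fh1) read 8.10, 8.02 and 8.47 after LPS + IFNγ, 9.69, 9.13 and 9.23 after IL-4, and 9.38, 8.64 and 8.75 in unstimulated cells. It was lower than after IL-4 (-1.15, adjusted p = 0.0262), and its difference from unstimulated cells was -0.73 (adjusted p = 0.12).

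Of succinate dehydrogenase, the enzyme that itaconate inhibits, the subunit Sdhb differed by 0.17 after LPS + IFNγ (adjusted p = 0.811) and by 0.72 without the weak array (adjusted p = 0.0274), and Sdha did not meet the detection filter. Sdhc differed by 0.26 (adjusted p = 0.535), or 0.01 without that array. Sdhd, not detected on it, differed by 0.01 (adjusted p = 0.996), or 0.83 without it (adjusted p = 0.0598). Suclg1, a subunit of succinyl-CoA ligase, read 10.58, 10.52 and 10.47 after IL-4, against 9.92, 9.68 and 10.15 in unstimulated cells. The groups did not overlap, as in 18.3% of all genes, and the difference of 0.60 did not pass (limma adjusted p = 0.99). After LPS + IFNγ Suclg1 differed by 0.07.

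Among 7 measured genes of pyruvate entry, the 2 phosphatases that activate pyruvate dehydrogenase moved in opposite directions. Pdp1 read 7.11, 7.52 and 7.14 after LPS + IFNγ, 6.68, 6.18 and 5.96 after IL-4, and 5.70, 6.08 and 5.52 in unstimulated cells. It rose by 1.49 ± 0.27 over unstimulated cells (SE, adjusted p = 0.007) and by 0.99 over IL-4 (adjusted p = 0.042). Pdp2 read 7.64, 7.15 and 6.89 after LPS + IFNγ, 8.88, 8.66 and 8.71 after IL-4, and 8.95, 8.20 and 8.63 in unstimulated cells, with the weak array not detected. It fell by 1.37 ± 0.28 against unstimulated cells (SE, adjusted p = 0.0119), and the difference was -1.33 without that array (adjusted p = 0.00634). The kinase Pdk1, which inhibits pyruvate dehydrogenase, differed by -0.93 (adjusted p = 0.416) and by -0.01 without the weak array.

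Slc25a10, the mitochondrial dicarboxylate carrier that exchanges malate and succinate for phosphate, had the largest rise in the list. It read 10.03, 8.41 and 10.04 after LPS + IFNγ, 7.70, 7.52 and 7.30 after IL-4, and 6.96, 7.18 and 7.25 in unstimulated cells. All LPS + IFNγ arrays lay above all others, the weak array least so. The difference was 2.36 ± 0.42 (SE) from unstimulated cells (adjusted p = 0.0066) and 1.99 from IL-4 (adjusted p = 0.0151), and 2.91 and 2.53 without the weak array. Slc25a12, another listed carrier, differed from unstimulated cells by 1.02 after LPS + IFNγ (limma adjusted p = 0.0909). Without the weak array it rose by 1.43 and passed (adjusted p = 0.000934), beside 34.3% of all genes.

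Of the 4 measured genes listed under glutamine and aspartate entry (Asns, Glud1, Got2 and Gpt2), 2 were lower after LPS + IFNγ and none higher. Among all genes 12.2% were lower. Asns differed by 0.96 (limma adjusted p = 0.203) and Gpt2 by -0.50 (adjusted p = 0.589). Without the weak array, on which neither was detected, these were 1.11 and 0.18. Got2, the mitochondrial aspartate aminotransferase, fell by 0.99 ± 0.18 and Glud1, glutamate dehydrogenase, by 0.86 ± 0.19 against unstimulated cells (SE, adjusted p = 0.00806 and 0.0159, limma). Got2 read 10.41, 10.60 and 10.39 after LPS + IFNγ, against 11.53, 11.40 and 11.42 in unstimulated cells, and Glud1 9.78, 9.84 and 9.89, against 10.87, 10.67 and 10.56. Neither moved after IL-4 past the test, with differences of -0.08 and -0.14. With the kept probes of each gene averaged, Got2 still passed for LPS + IFNγ against unstimulated cells and Glud1 did not. Of the 4 measured genes of citrate use and lipid synthesis none passed against unstimulated cells after LPS + IFNγ or IL-4, beside 18.3% and 0.0639% of all genes. Fasn and Scd2 were not detected on any LPS + IFNγ array, and Acss2 and Me1 were not detected on the weak array, so changes in them are poorly measured here. Ireb2, the iron-regulatory protein related to Aco1, differed by -0.34 after LPS + IFNγ (adjusted p = 0.692). The sign turned to 0.33 without the weak array, on which it was not detected, and to 0.21 with the slide as a block.

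Of the 7 listed genes that passed against unstimulated cells, Pdp2 (-1.56, limma adjusted p = 0.0438) and Slc25a10 (2.54, adjusted p = 0.0387) still passed with the slide as a block. Got2 (-1.03, adjusted p = 0.0522), Pdp1, Idh3g, Glud1 and Mdh1 did not. All unstimulated arrays lie on 1 slide. Acod1, Idh1 and Idh2 passed in that fit too, at 5.25, -4.33 and -3.24, beside 7.1% of all genes. Against IL-4 the same 3 members passed with the slide block beside 14.6% of all genes, and for IL-4 against unstimulated cells no member passed beside 0.0319%. With median centring of the arrays none of the 7 genes passed against unstimulated cells.

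**Figure D5:**
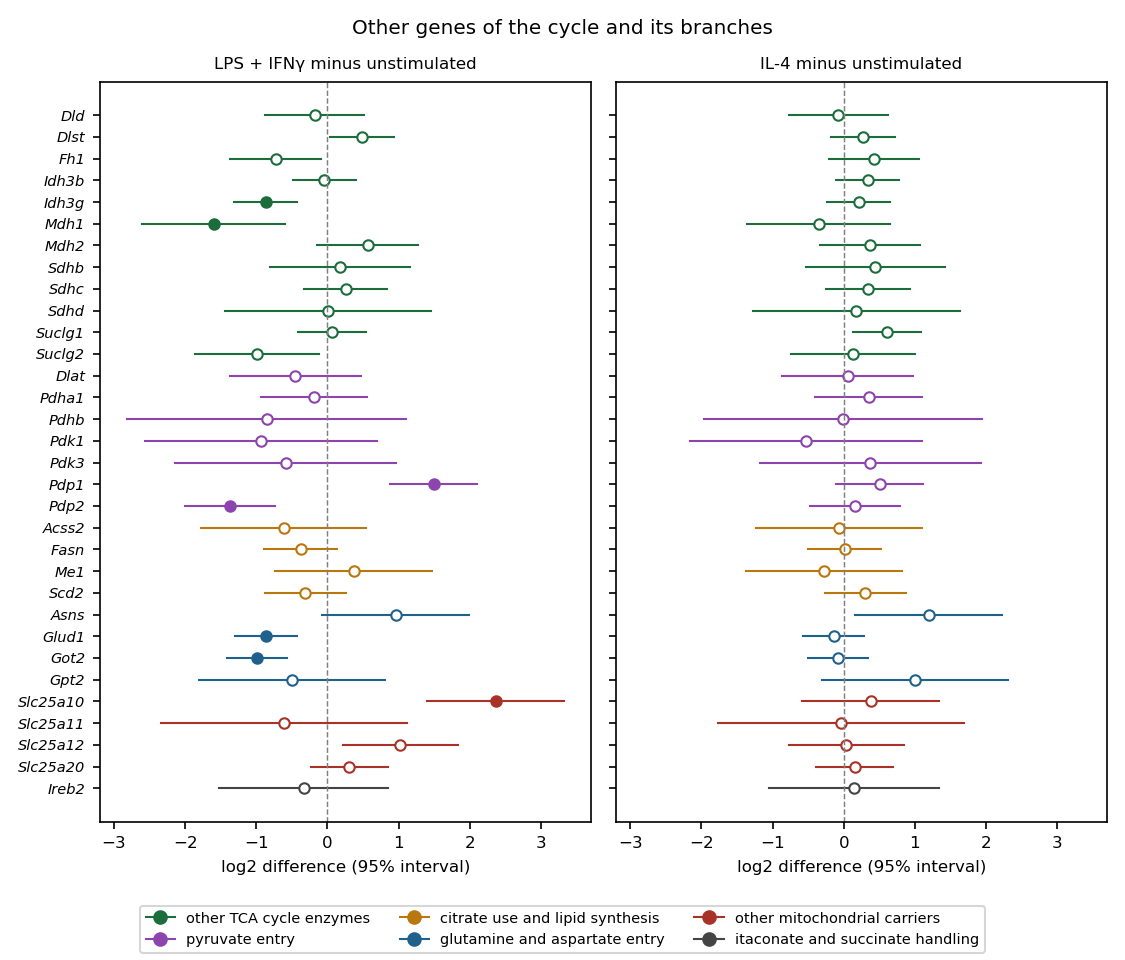
Log2 differences with 95% intervals (horizontal axis) for the 32 measured genes around the set, coloured by role and filled where the adjusted p is under 0.05. After LPS + IFNγ, Slc25a10 and Pdp1 are filled to the right of 0 and Idh3g, Mdh1, Pdp2, Glud1 and Got2 to the left, and no gene is filled after IL-4.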

How the data were processed

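RNA extracted with TRIzol was labelled as biotinylated cRNA, per the labels' protocols, and hybridised to Illumina bead arrays. The authors deposited 2 tables of 45281 probes. One holds intensity per probe on a linear scale with no scaling between arrays, and a detection p-value beside each, per the file headers and the values. The other deposited table holds log2 values, which equal quantile-normalized log2 intensities plus a shift per probe between slides (correlation of this shift with a fitted slide coefficient 1.00), and it served only as an alternative. The submitters' processing notes name Partek, without a role or version.

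Background was removed in limma 3.58.1 under R 4.3.3 by normexp with an offset of 16, whose control-probe mean and spread were estimated through the detection p-values. The log2 of these values was then quantile-normalized. limma's neqc, which was named in the plan, takes these last steps in the other order and is an alternative here. Probes detected at p under 0.05 on at least 3 of 9 arrays were kept (16895). The 3 groups were compared in 1 linear model with limma's moderated test (no covariate) and Benjamini-Hochberg adjustment within each comparison over all kept probes, with a threshold of 0.05. All 3 groups share 1 estimate of the spread per probe, so the weak array also enters the intervals of IL-4 against unstimulated cells. The model and adjustment were tested on simulated log2 data with independent noise of equal spread on all arrays. The simulation had no weak array, slide effect or detection floor, so it cannot show how the test handles these. The number of arrays limits the precision.

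Of the probes, 34885 carry 1 gene symbol, 18 several and 10378 none. 34807 of the first kind matched the RefSeq gene table by gene number. Promoters came from RefSeq (GRCm38.p6). Where no array of the lower group detected a gene, undetected values were set to the lowest detected one on their array to give a lower bound on the fold.

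The genes and lists were chosen with earlier results of these data known. Named around them are Sdha, Sdhb, Fh1, Mdh2, Suclg1, Pdk1 and Ireb2 whatever their values, up to 6 list genes per direction past the threshold, and the 5 genes with the smallest root mean square difference from Acod1 (predicted genes passed over). Another listed gene is not reported here. Idh3b was added for the Idh3 complex after its values were seen, and so were Sdhc, Sdhd, Suclg2, Slc25a12, Asns, Gpt2, Fasn, Scd2, Acss2 and Me1.

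Equal replicate numbers were checked through correlations of the arrays' deviations from their group means. For IL-4 against unstimulated cells these were 0.366, 0.427 and 0.30, so the numbers pair these samples by that measure, though the labels give no shared source; for LPS + IFNγ against unstimulated cells they lay between -0.041 and -0.005, and against IL-4 between -0.115 and 0.068. The reported fit leaves this pairing out. The alternative with replicate numbers as a block takes equal numbers as pairs in all 3 groups, and no paired fit of the IL-4 and unstimulated arrays alone was run. Alternatives covered background correction, scaling, filters, slide, replicate numbers, array weights, probe averaging, the deposited log2 table and leaving out each array.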

Additional observations from a re-analysis of the deposited data

How the results depend on the processing

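Acod1, Idh1 and Idh2 passed in both LPS + IFNγ comparisons under all 24 alternatives, and no member passed for IL-4 against unstimulated cells under any. Against unstimulated cells, Acod1 ranged from 4.90 to 6.47, Idh1 from -5.26 to -3.23 and Idh2 from -3.81 to -1.52 on the log2 scale, with adjusted p up to 0.0167, 0.0175 and 0.00198. With array weights 5 members passed in each LPS + IFNγ comparison, and leaving out 1 array gave 3 or 4. The share of all genes passing was not counted with array weights. With the replicate block the counts of members stayed at 3, 0 and 3, and the counts of the surrounding genes were 7, 0 and 5. Among those genes, the count against unstimulated cells was 1 with median centring (Suclg2, not among the 7 of the reported fit) and 2 with the slide block. It was 5 with the mean of kept probes, 13 with array weights and 3 to 10 when 1 array was left out. Against IL-4 it was 2 with median centring (Pdp2 and Suclg2), 4 within slide 2, 11 with array weights and 2 to 9 when 1 array was left out. Median centring moved the median of all genes to -1.01 and the split of calls to 26 higher and 885 lower, against 575 and 1143; without LPS + IFNγ replicate 2 it was 1330 and 1890. The cause was not tested. The quantile normalization before the log and the renormalization without the weak array were chosen after seeing the data.

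The differences that changed sign all passed no threshold in the settings named here. For LPS + IFNγ against unstimulated cells, Cs was 0.13 in the deposited log2 table, 0.15 with the slide block, 0.38 within slide 2, 0.11 with array weights, 0.26 with the slide block and without the weak array, and 0.15 renormalized without that array. Ogdh was 0.083, 0.037, 0.52, 0.36, 0.49 and 0.40 in the same settings, and Slc25a1 was -0.11, -0.14, -0.46, -0.17, -0.31 and -0.24, -1.42 with median centring and -0.26 as the mean of its probes. Idh3a was -0.85 with median centring. For LPS + IFNγ against IL-4, Cs was 0.060 within slide 2, Idh3a 0.071 renormalized without the weak array, and Ogdh 0.18 within slide 2, 0.0036 with array weights, 0.11 with the slide block and without the weak array, and 0.15 renormalized without it. For IL-4 against unstimulated cells, Aco1 was -0.0018 without background correction, -0.00018 with offset 50, -0.19 with slide as a random block, -0.016 within slide 2 and -0.033 with array weights. Idh1 was -0.11 with slide as a random block. Idh2 was 0.051 in the deposited log2 table, 0.11 with the slide block and within slide 2, 0.053 with array weights and 0.10 with the slide block and without the weak array. When 1 array was left out, LPS + IFNγ against unstimulated cells ranged from -0.34 to 0.15 in Cs, -1.08 to 0.38 in Ogdh and -0.22 to 0.46 in Slc25a1. Against IL-4 the range was -0.32 to 0.15 in Idh3a, -1.32 to 0.14 in Ogdh and -0.64 to 0.039 in Slc25a1, and for IL-4 against unstimulated cells it was -0.094 to 0.13 in Aco1, -0.13 to 0.25 in Idh1 and -0.14 to 0.11 in Idh2.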
